A study of Schizosaccharomyces pombe with 3 samples.

Results

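The fission yeast Schizosaccharomyces pombe carries Tup12, a corepressor that does not bind DNA itself and is brought to promoters by sequence-specific factors. The intergenic features with the weakest Tup12-GFP signal are described here. There were 217 of them among 2109 intergenic features measured on all 3 arrays (10.3%), out of 4796 intergenic features printed and 9967 genomic features in all. A feature is a DNA piece spotted on the array, and an intergenic feature (IGR) takes the name of the gene whose upstream region it covers. Members were chosen from the measured values themselves: log2 of immunoprecipitate over input intensity, set to 0 at the median of each array, had to be below 0 on every array with a mean at or below -0.5. The rule therefore fixes their low values, which are given below as a description without a test.

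Each of the 3 arrays held chromatin of cells with GFP-tagged Tup12, taken from rich YES medium in mid-log growth, crosslinked, sonicated and precipitated with a polyclonal antibody to GFP. Input DNA is listed as Cy3 and precipitated DNA as Cy5 on every array, both amplified in 2 rounds before labelling. There is a single group of 3 separate experiments, called replicates 1, 2 and 3, with no other genotype, medium or time. The protocol calls this dye assignment general and names no dye swap, so the direction of every ratio rests on the channels listed for each array. No array of untagged cells is analysed here, so a low ratio cannot be set against the antibody's background at the same feature.

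Tup family proteins form complexes with Ssn6 and repress transcription through contacts with histones, histone deacetylases and the transcription machinery. In fission yeast Tup11 and Tup12 share these functions and are known from the repression of glucose-repressed, iron-uptake and stress genes.

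The sequences below are shown because both genes of each region named a depleted feature, printed as 2 separate features. They were read from the plus strand of the RefSeq assembly ASM294v3. No source used here names the build behind the array design, and the exact spotted pieces are not known. In the first stretch capitals mark the start codons of the divergent genes fmt1 (reverse strand) and SPAC1805.10 (forward strand), which lie 21 bases apart at chrI:2791219-2791245. The stretch also holds TATAAA, left in lower case. The annotated transcripts of this pair overlap.
fmt1 and SPAC1805.10: CATccttataaattttgttgcagaATG
The next stretches lie between the annotated transcripts of each pair. Capitals mark CAGTCACA, the HomolD box of fission yeast ribosomal protein promoters, in both ribosomal protein regions (chrI:1285501-1285615 and chrI:2794776-2794900), and TGACGT, the core of the cyclic AMP response element, with TGATAA, which resembles sites of GATA factors, between ubc13 and sea3 (chrI:5288095-5288247). The last stretch (chrI:1770090-1770148) held none of the 7 sequences searched.
mrx21 and rpl1802: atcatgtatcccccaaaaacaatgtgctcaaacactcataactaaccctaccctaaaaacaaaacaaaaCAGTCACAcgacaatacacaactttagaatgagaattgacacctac
ubi2 and rpl14: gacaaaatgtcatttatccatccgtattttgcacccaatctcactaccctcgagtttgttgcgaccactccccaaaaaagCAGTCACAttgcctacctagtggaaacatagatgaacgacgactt
ubc13 and sea3: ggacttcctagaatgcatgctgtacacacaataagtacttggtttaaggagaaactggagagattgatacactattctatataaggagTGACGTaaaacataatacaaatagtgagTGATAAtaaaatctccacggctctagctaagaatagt
glc8 and hua1: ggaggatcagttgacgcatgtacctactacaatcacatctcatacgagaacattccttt

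Measurement quality bears on every value below. Spots accepted in both channels were 63.4% to 67.9% of the 19942 genomic spots per array, and features were usually printed as 2 spots side by side. Negative control spots that were accepted had median immunoprecipitate intensities of 911, 968 and 1198 on replicates 1, 2 and 3, against 984, 841 and 1061 for the depleted features. The immunoprecipitate of 38.7%, 66.8% and 65% of the depleted features lay below that control median, compared with 22.6%, 32.4% and 36.1% of the other intergenic features. For much of the set the precipitated signal was thus at the level of negative control spots. Accepted immunoprecipitate spots below the background value listed for the spot made up 1.16%, 30.7% and 0.693% of those of the depleted features. For the other intergenic features the shares were 0.665%, 5.52% and 1.32%. Replicate 2 values of members are therefore the least certain.

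The depleted features were brighter in the input and dimmer in the immunoprecipitate than other intergenic features on all 3 arrays. Their median input intensity was 1202, 1892 and 1752, against 620, 985 and 856 for the rest, a log2 difference of 0.95, 0.94 and 1.03. The log2 difference of the median immunoprecipitate intensity was -0.37, -0.58 and -0.52. Of the members, 67.3%, 64.5% and 73.7% lay among the 25% of measured intergenic features with the brightest input. Both intensities enter the ratio that chose the members. The input of ORF features, which cover coding sequence, was similarly bright, at 1220, 2065 and 1531. The part of input brightness in the low ratios was not tested beyond the comparison within bins of equal input given with the neighbouring features.

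Position on the slide also moved with the ratio. The array is printed in 48 blocks, and blocks 21, 13, 17 and 9 held 75 of the 217 members (34.6%) but 10.4% of the other intergenic features. These 4 blocks were picked as those with the most members, so an excess there is set by the choice. Over print blocks, the share of members correlated with the ORF median at r = -0.62. In those 4 blocks the ORF features, which the rule did not use, had medians of -0.72, -0.98 and -0.98, compared with -0.36, -0.59 and -0.32 in the other blocks. Centring each block on its own median, an alternative added after the data were seen, left 171 features meeting the rule. Of these, 134 were among the 217 (61.8% of the original set and 78.4% of the block-centred set). The 50 lowest members all met the rule with block centring. Whether block differences come from printing or from which genes were printed together was not tested. Values with block centring are given beside the main results below.

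**Figure D1:**
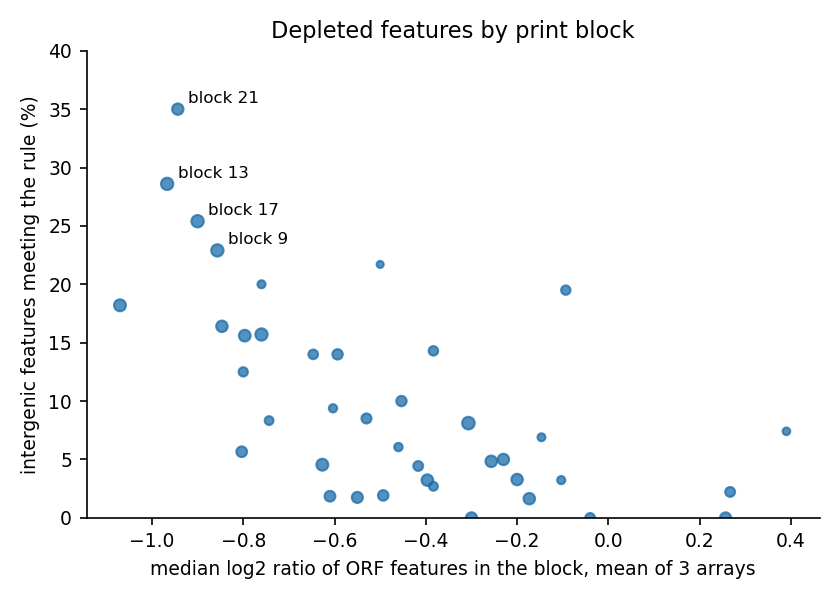
Share of measured intergenic features that met the rule in each print block (vertical axis, percent) against the median log2 ratio of the ORF features of the block, averaged over 3 arrays (horizontal axis). Each point is a block with at least 20 measured features of both kinds and its area follows the number of intergenic features; blocks 21, 13, 17 and 9 hold the most members and have low ORF medians.

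The 12 lowest members were spread over genes of tRNA maturation, signalling, replication and transport. The lowest of all was the feature upstream of fmt1, the methionyl-tRNA formyltransferase that prepares initiator tRNA for mitochondrial translation. Its log2 ratios were -1.98, -2.14 and -1.93 on replicates 1, 2 and 3, a mean of -2.02 ± 0.11 (SD, n = 3). The feature of its divergent neighbour SPAC1805.10, an uncharacterised gene, had -1.83, -1.76 and -1.89, a mean of -1.83 ± 0.07 (SD, n = 3). For both features the input was bright, at 2845, 4125 and 3524 upstream of fmt1, with immunoprecipitate intensities of 1030, 764 and 1094. Both features of the 21-base region were thus the lowest of all 2109. They were printed in blocks 9 and 17, which are both among the 4 blocks with the most members. Their immunoprecipitate lay below the control median on replicates 2 and 3, and fmt1 had no value on all 3 arrays when dim immunoprecipitate was left out, so its exact level is uncertain.

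The feature of sif2, a gene for a factor that interacts with the nuclear envelope protein Sad1, had -1.40, -2.09 and -1.85. Its input was 1085, 2021 and 1798, near the member medians of 1202, 1892 and 1752. That was brighter than the medians of other intergenic features (620, 985 and 856). Its immunoprecipitate was dim, at 589, 387 and 587, below the control median on every array. A feature named p20C8_337239_1, matched to no gene, had -1.52, -1.79 and -1.96. The feature of tco1, which encodes an RTA1-like protein, had -1.53, -1.95 and -1.78 at the brightest input of the 12 (4031, 7047 and 6176). The immunoprecipitate of tco1 was 2004, 1484 and 2115, above the control median on each array, and its ratio was still among the lowest.

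The feature of sec74, an exchange factor for Arf-type GTPases of vesicle traffic, had -1.37, -1.73 and -2.0. SPAC1B3.15c, annotated as a vitamin H transporter, had -1.75, -1.18 and -1.64. The haspin-like kinase gene hrk1, whose product marks centromeric histone H3, had -1.21, -2.11 and -1.24. Replicate 2 was the lowest array for hrk1, sif2, tco1 and fmt1, but the highest for SPAC1B3.15c.

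The feature of mob1, the regulatory subunit of the Sid2 kinase that triggers septum formation, had -1.21, -1.35 and -1.98. The feature of vma13, subunit H of the vacuolar proton pump, had -1.15, -1.83 and -1.44. The feature of sld5, a subunit of the GINS complex of the replication fork, had -0.77, -2.01 and -1.63, the widest spread of the 12. The last of the 12 was pus4, a tRNA pseudouridine synthase gene, at -1.70, -1.05 and -1.63. All 12 remained members with block centring, with means from -1.68 (fmt1 and sec74) to -0.91 (sld5). The features of mob1, vma13, sld5 and p20C8_337239_1, like that of fmt1, were not measured on every array when dim immunoprecipitate was left out. Their exact levels are uncertain as well.

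**Figure D2:**
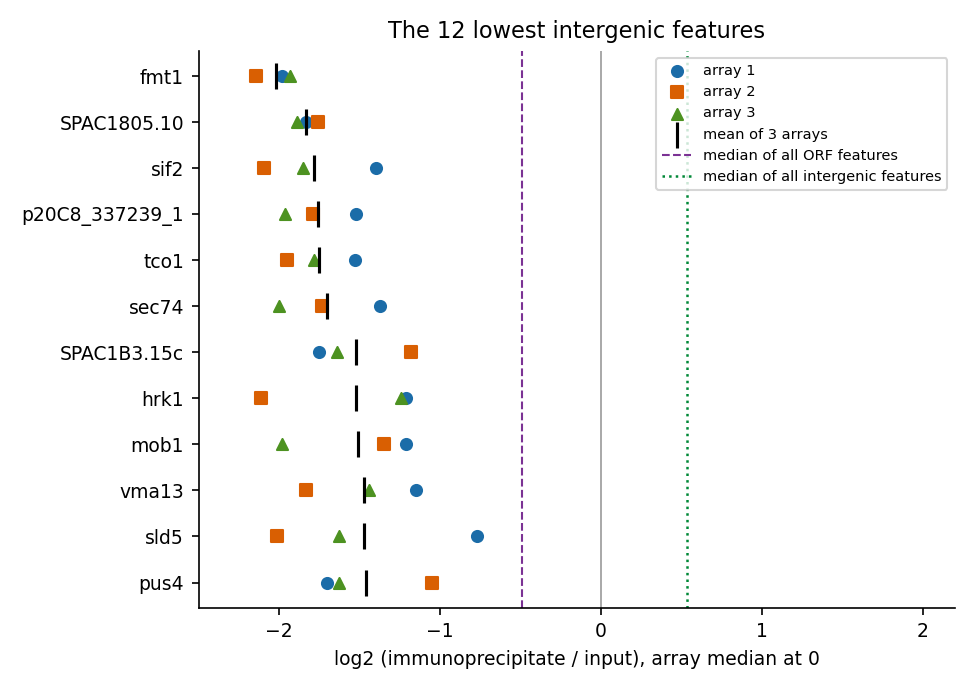
Log2 ratio of immunoprecipitate over input on the 3 arrays (circles, squares and triangles for replicates 1, 2 and 3) with the mean (bar) for the 12 lowest intergenic features, named by gene. Every point lies left of the dashed line, the median of all ORF features (-0.49), and the dotted line marks the median of all intergenic features (0.54).

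The whole set reached from -2.02 to -0.50 with a median of -0.81, and 63 members had a mean at or below -1. The median SD over arrays was 0.36, close to the 0.39 of all measured intergenic features. Members were lowest on replicate 3 in 117 cases, on replicate 2 in 70 and on replicate 1 in 30. Across the 217 members, values on replicates 1 and 3 correlated at r = 0.49, but those on replicate 2 hardly followed either (0.14 with replicate 1 and 0.02 with replicate 3), within a range that the rule cuts. The members share arrays and blocks, so the correlation is a description only.

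The steadiest members were mim1 (-0.70, -0.71 and -0.75), cog3 (-0.52, -0.58 and -0.50), rad15 (-1.14, -1.10 and -1.19), the centromeric dg1repeat feature (-0.68, -0.68 and -0.78) and SPAC1805.10, given above. Mim1 inserts proteins into the outer mitochondrial membrane, Cog3 is a Golgi tethering subunit and Rad15 is a helicase of TFIIH. The least steady were swi2 (-0.63, -1.99 and -0.05), atg22 (-0.26, -1.96 and -0.20), yip5 (-0.22, -1.84 and -0.40), tfg1 (-0.54, -1.17 and -2.26) and SPBC18H10.05 (-0.54, -2.16 and -0.78). In 4 of these 5 the mean rests on the low value of replicate 2, and in tfg1 on that of replicate 3. Replicate 2 also had the largest share of member spots below background, as given above.

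At the limit, the 5 members with the highest means were gpi7 (-0.504), dam1 (-0.510), prt1 (-0.514), his1 (-0.516) and mug170 (-0.516). The 5 features just outside, also below 0 on each array, were SPAC1142.09 (-0.496), sws2 (-0.496), gyp51 (-0.492), fra3 (-0.486) and mug84 (-0.484). These 10 differ by far less than their SDs, which ran from 0.15 to 0.46. A further 20 intergenic features had a mean at or below -0.5 but were not below 0 on every array. The limit thus cuts a continuous range of values.

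Depletion here is relative to other intergenic DNA more than to coding DNA. The median of the members was -0.76, -0.81 and -1.02 on replicates 1, 2 and 3, compared with 0.67, 0.75 and 0.66 for the other intergenic features. The ORF features had medians of -0.41, -0.63 and -0.41. The members therefore lay 0.38 ± 0.22 (SD over 3 arrays) below the typical coding feature, and 1.55 ± 0.13 below other intergenic features. When the arrays were centred on ORF features, 77 intergenic features met the rule, all of them among the 217. Over all features limma called 1425 depleted (26.1%) and 1209 enriched (22.1%), which became 677 and 1911 with centring on ORF features. In limma's moderated test against 0, 153 members had an adjusted p under 0.05, and 7.35% of the measured intergenic features were called depleted. The rule used the same values, so nothing is read from that count.

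**Figure D3:**
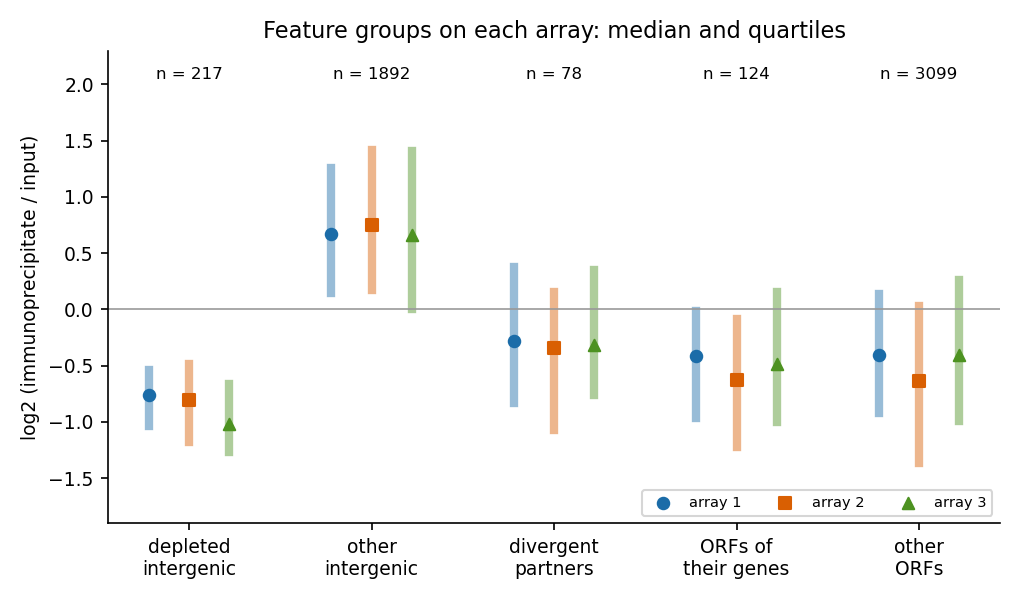
Log2 ratio of immunoprecipitate over input by feature group, with the median (symbol) and the quartiles (bar) on replicates 1, 2 and 3. The depleted features lie lowest by their selection, their divergent partners lie between them and the other intergenic features, and the ORF features of their genes lie level with the other ORF features.

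The coding sequences of the same genes were measured by other spots and lay close to the level of other ORF features. Of the 203 members matched to a gene, 200 had an ORF feature on the array, and 124 of these were measured on all 3 arrays. Their medians were -0.41, -0.62 and -0.48, against -0.41, -0.63 and -0.40 for the 3099 other ORF features, a difference of -0.03 ± 0.05 (SD over 3 arrays). By limma, 52 of the 124 were called depleted (41.9%) and 4 enriched (3.23%), where the share among all ORF features was 38.8% and 8.19%. With centring on ORF features, 22 of the 124 were called depleted (17.7%) and 20 enriched (16.1%), compared with 19.6% and 17.4% of the other ORF features. With the members chosen anew, the difference was -0.12 ± 0.08 with block centring and -0.27 ± 0.10 with further background subtraction, beyond its spread.

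The lowest ORF features among these genes were those of cnp3, the fission yeast CENP-C that links centromeric chromatin to the kinetochore, and of sec74. The cnp3 ORF had -1.68, -3.49 and -1.41, a mean of -2.20 ± 1.13 (SD, n = 3, limma adjusted p = 5.2e-06), while the upstream feature was at -0.75. The sec74 ORF had -2.35, -1.75 and -1.95, a mean of -2.02 ± 0.30 (n = 3, limma adjusted p = 1.67e-06), so that sec74 was low both upstream (-1.70) and within the gene. The cnp3 value rests partly on replicate 2, and the arrays of sec74 lay closer together.

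The ORF of cct2, a subunit of the cytosolic chaperonin, had -1.40, -2.29 and -1.73 (limma adjusted p = 1e-05). The ORF of vps4, the ATPase that takes apart ESCRT complexes, had -1.33, -2.28 and -1.71 (limma adjusted p = 1.36e-05). The ORF of the uncharacterised gene SPCC622.01c had -1.65, -1.82 and -1.70 (limma adjusted p = 1.21e-05), the steadiest of the 8. These 3 genes were lower within the coding sequence than upstream, where the means were -0.80, -0.66 and -0.90. The 8 ORF features were picked as the lowest, so their order to the upstream values is largely set by the choice and is no finding.

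The ORF of osm1, a fumarate reductase gene, had -1.25, -2.03 and -1.36 (limma adjusted p = 6.5e-05). The ORF of vps38, part of the phosphatidylinositol 3-kinase complex, had -1.27, -1.61 and -1.72 (limma adjusted p = 5.6e-05). The ORF of swr1, the remodeller that deposits the histone variant H2A.Z, had -1.68, -1.80 and -1.11 (limma adjusted p = 6.87e-05). These 8 ORF features were all called depleted, as were 38.8% of ORF features in general. Those of cnp3, cct2, vps4 and vps38 had no value on all 3 arrays when dim immunoprecipitate was left out, so their exact levels are uncertain.

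In 4 genes the coding sequence was enriched although the upstream feature was depleted. The ORF of shk2, a PAK-like kinase gene, had 0.94, 1.28 and 1.91, a mean of 1.38 ± 0.49 (n = 3, limma adjusted p = 0.000272), against -0.73, -0.62 and -1.07 upstream. The ORF of cdc25, the phosphatase that activates the mitotic kinase, had 1.81, 1.19 and 0.71, a mean of 1.24 ± 0.55 (n = 3, limma adjusted p = 0.000866), against -0.69, -0.79 and -1.20 upstream. The rule holds upstream values below 0, and these ORFs were picked as enriched. The order of ORF and upstream values is thus set by the choice and is no finding.

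The ORF of rpl14, a protein of the large ribosomal subunit, had 0.93, 1.24 and 1.17, a mean of 1.11 ± 0.16 (n = 3, limma adjusted p = 0.00154), against -0.21, -0.90 and -0.46 upstream. The ORF of dph5, an enzyme of diphthamide synthesis on elongation factor 2, had 1.07, 0.65 and 1.25, a mean of 0.99 ± 0.31 (n = 3, limma adjusted p = 0.00461), against -0.77, -0.68 and -1.34 upstream. The order of ORF and upstream values is set by the choice in these genes too. With block centring the upstream features of shk2 and dph5 no longer met the rule (-0.27 and -0.44), and the dph5 ORF fell to 0.34 (limma adjusted p = 0.171), whereas cdc25 and rpl14 kept both sides (-0.87 and 1.12 for cdc25, -0.73 and 1.14 for rpl14). Without replicate 1 the ORF calls of cdc25 and dph5 were lost (limma adjusted p = 0.0921 and 0.0929), with means of 0.95 in both. Without a filter on flags all 4 ORF calls were lost (limma adjusted p = 0.245 for shk2, 0.4 for cdc25, 0.0969 for rpl14 and 0.614 for dph5). The rpl14 call was also lost with loess (0.66, limma adjusted p = 0.086), and the dph5 call with further background subtraction (0.43, limma adjusted p = 0.442).

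The depleted features lay in short gaps more often than other intergenic features. The median distance between the coding sequences was 591 bases (quartiles 298 and 1186) for members and 936 bases (532 and 1570) for the rest. Of the 92 measured features in gaps of 1 to 200 bases, 30 were members (32.6%), compared with 14.6% in gaps of 201 to 400 bases, 12.4% in gaps of 401 to 600, and 6.09% to 9% in each longer class. Only 3.99% of the other intergenic features lay in gaps of at most 200 bases, against 15.8% of the members. Gap length was not used by the rule. With block centring the share in gaps of 1 to 200 bases was 29.3%, so the excess in short gaps was present with either centring.

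The ratio itself was higher in longer gaps. The median log2 ratio of intergenic features on replicates 1, 2 and 3 was -0.11, -0.20 and -0.23 in gaps of 1 to 200 bases, 0.20, 0.33 and 0.32 in gaps of 201 to 400, and 0.81, 0.93 and 0.85 in gaps of 1501 to 2000. Input intensity moved with gap length as well. Its medians were 908, 1456 and 1221 in gaps of 1 to 200 bases and 540, 861 and 743 in gaps of 801 to 1000, but 831, 1344 and 1165 again in gaps over 2000 bases, where only 6.09% were members. The immunoprecipitate rose from 1045, 917 and 1131 in gaps of 1 to 200 bases to 1882, 1745 and 2101 in gaps over 2000. No source used here says how far a spotted piece reached into the coding sequences beside a short gap, and its part in the low ratios was not tested.

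**Figure D4:**
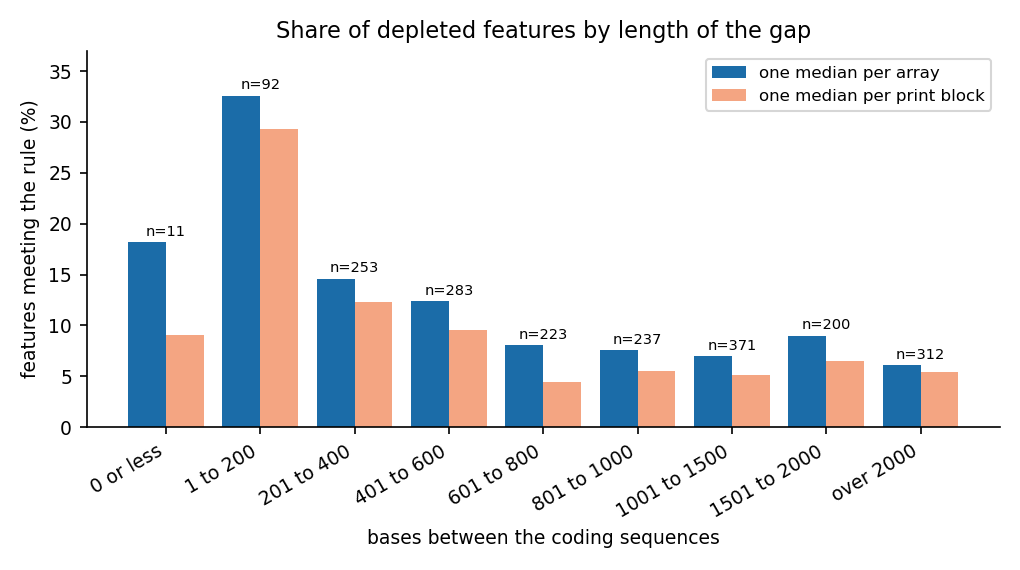
Share of measured intergenic features that met the rule (vertical axis, percent) by the number of bases between the coding sequences beside them (horizontal axis), with the arrays centred on 1 median (dark bars) or on a median per print block (light bars); n is the number of measured features in a class. Gaps of 1 to 200 bases hold the highest share, 32.6% and 29.3%.

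The shortest gaps among members belonged to genes of varied function. Besides fmt1 and SPAC1805.10 (21 bases), the feature of mhf2, a DNA repair gene of the FANCM complex, lay in a gap of 9 bases, with -1.34, -1.04 and -1.82. The feature of mud1, for a ubiquitin-binding protein, lay in a gap of 12 bases, with -0.94, -0.61 and -1.67. The feature of tif45, the cap-binding initiation factor eIF4E, lay in a gap of 17 bases, with -0.85, -0.26 and -1.30. Replicate 2 was the highest array in all 3. The coding sequences beside the features of coa1 and dam1 overlap by 2 bases in the annotation used, and these members were weak, at -0.60 and -0.51. In all, 10 members (4.93%) and 1.24% of the other intergenic features lay in gaps of at most 100 bases.

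Divergent gene pairs flanked 60.1% of members and 55.4% of other intergenic features, and the rest lay between tandem genes. In gaps of 1 to 200 bases, 38.8% of the divergent and 25.6% of the tandem features were members. The 500 bases upstream of the start codon had a median GC content of 33.6% for members and 32.8% for the rest. Members were more often on chromosome I (57.1% against 45.6%) and less often on chromosome II (24.1% against 33%). Among the members kept with block centring 63.4% were on chromosome I. Within 100 kb of a chromosome end lay 3 members (1.48%) and 4.61% of the other features.

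Neighbouring features from the same region were low as well when the genes were divergent. For 78 members the feature named for the divergent neighbour was also measured, and in 77 cases it was printed in another block. These partner features had medians of -0.28, -0.34 and -0.31, compared with 0.59, 0.66 and 0.54 for all other intergenic features, a difference of -0.91 ± 0.08 (SD over 3 arrays). Of the 78 partners, 26 were members themselves (33.3%), against 14% of all divergent partner features, and 53 had a mean below 0 (67.9% against 30.1%). The call counts among partners, 22 depleted and 10 enriched, stood beside 7.35% depleted and 43.7% enriched among all measured intergenic features. The 26 partners that are members add to these values by their selection. The 52 others had medians of 0.05, 0.02 and 0.20, still 0.60 ± 0.13 below the other intergenic features outside the set.

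Compared within 10 bins of equal input intensity, the difference of the partners was -0.58 ± 0.18, and with block centring and members chosen anew it was -1.03 ± 0.15. Input brightness thus moved with part of the difference. Features of tandem neighbours on the upstream side, which do not share the region, had medians of 0.70, 0.19 and 0.42 (29 features), close to 0.56, 0.62 and 0.50 for the others except on replicate 2. Features of the genes downstream of members had 0.45, 0.55 and 0.14 (79 features), against 0.57, 0.63 and 0.53. The ORF features of the genes upstream had -0.56, -0.64 and -0.48 (117 features), against -0.40, -0.63 and -0.41. The differences of these groups from the others were -0.13 ± 0.29, -0.19 ± 0.17 and -0.08 ± 0.08 (SD over 3 arrays), all smaller than that of the divergent partners.

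Likeness between divergent partners depended on the distance between the genes. Over all measured divergent pairs, the means of both features correlated at r = 0.84 in 107 pairs with gaps of 301 to 1000 bases, at 0.47 in 132 pairs with longer gaps and at 0.33 in 36 pairs with shorter ones. All pairs share the arrays, and pairs with short gaps may share DNA, so this is a description. For members the partner was a member too in 10 of 23 cases up to 300 bases, in 14 of 34 cases from 301 to 1000 bases and in 2 of 21 cases beyond.

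In 13 regions the features of both genes were members, and 8 of them are given here from the lowest mean. After fmt1 and SPAC1805.10 came glo3 (-0.86, -1.71 and -1.32), an Arf GTPase-activating protein of Golgi traffic, with its uncharacterised neighbour SPAC22E12.18 (-0.89, -1.61 and -1.14) across 507 bases. The feature of ubc13, a ubiquitin-conjugating enzyme of DNA damage tolerance, had -0.87, -1.37 and -1.30, and that of sea3, of the SEA complex that regulates TORC1, had -1.17, -1.14 and -1.28 across 310 bases. The 2 features of a pair followed each other from array to array in glo3 and SPAC22E12.18, where replicate 2 was lowest in both.

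The features of dfg10, annotated as a steroid dehydrogenase, and vma13 had means of -0.70 ± 0.57 and -1.47 ± 0.34 (SD, n = 3) across 470 bases, and both were lowest on replicate 2. The features of the uncharacterised genes SPCC622.01c and SPCC622.02 had -0.90 ± 0.45 and -1.17 ± 0.17 across 320 bases. The features of lkh1, a LAMMER kinase, and rad15 had -0.58 ± 0.16 and -1.14 ± 0.05, but lie 5949 bases apart and need not cover the same DNA. The features of SPAC4H3.04c and of srs2, a helicase that removes recombinase from DNA, had -0.82 ± 0.49 and -0.90 ± 0.20 across 625 bases. The features of oca8 and of mrpl31, a mitochondrial ribosomal protein, had -0.57 ± 0.18 and -1.11 ± 0.15 across 470 bases. Among the other 5 pairs, those whose sequences are printed above were weaker: mrx21 and rpl1802 had -0.71 ± 0.52 and -0.91 ± 0.70 across 142 bases, and glc8 and hua1 had -0.78 ± 0.33 and -0.72 ± 0.49 across 170 bases. The pair ubi2 and rpl14 is given with its run. Of the first 8 pairs, both features stayed members with block centring in all but lkh1 with rad15, SPAC4H3.04c with srs2, and oca8 with mrpl31.

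Some divergent partners were enriched, chosen for mention after their values were seen. Across 226 bases from tif11, the gene of initiation factor eIF1A (-1.08, -0.41 and -1.52), the feature of hrf1, a protein of COPII vesicles, had 0.90, 1.06 and 0.95. Across 1921 bases from ski7 (-0.32, -1.22 and -0.15), the feature of the heat shock gene hsp9 had 1.11, 1.08 and 1.79. Across 635 bases from the ribosomal protein gene rps902 (-0.59, -0.45 and -0.81), the feature of ort1, annotated as a carboxylic acid transporter, had 0.74, 1.04 and 1.94. Both sides were chosen, the members by the rule and the partners as enriched, so the distance between them is no finding. The limma adjusted p of the partners was 0.00473, 0.000347 and 0.000955. Of all measured intergenic features, 43.7% were called enriched.

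Some members also followed each other in gene order. Counting the intergenic features measured on all 3 arrays in gene order, 7 runs of at least 3 consecutive members held 23 of the 217. Genes without a measured feature can lie between, as between vps4 and atg22, at gene positions 1 and 8 of their run. Several runs hold both features of a divergent region, which may cover the same DNA. How many runs the overall share of 10.3% would give was not tested. The longest run, on chromosome I, joined 5 genes in a row: fmt1, SPAC1805.10, rps2602, ubi2 and rpl14, printed in blocks 9, 17, 25, 34 and 33. The rps2602 feature, of a small-subunit ribosomal protein gene, had -1.12, -0.69 and -1.14, the ubi2 feature, of a gene for a ubiquitin-ribosomal fusion protein, had -0.22, -0.68 and -1.27, and rpl14 closed the run at -0.21, -0.90 and -0.46. The means lay closer to 0 from each of these genes to the next. Next to the run SPAC1805.14 had -0.15, 0.09 and -0.30 and was no member, but SPAC1805.16c, a purine nucleoside phosphorylase gene 3 genes beyond rpl14, was again a member at -1.62, -1.06 and -1.43. The ORF of rpl14 inside the run was enriched, as given above, and that of ubi2 had 0.26, 0.53 and -0.50. With block centring rps2602 left the set at -0.49 and the other 4 of the run remained.

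**Figure D5:**
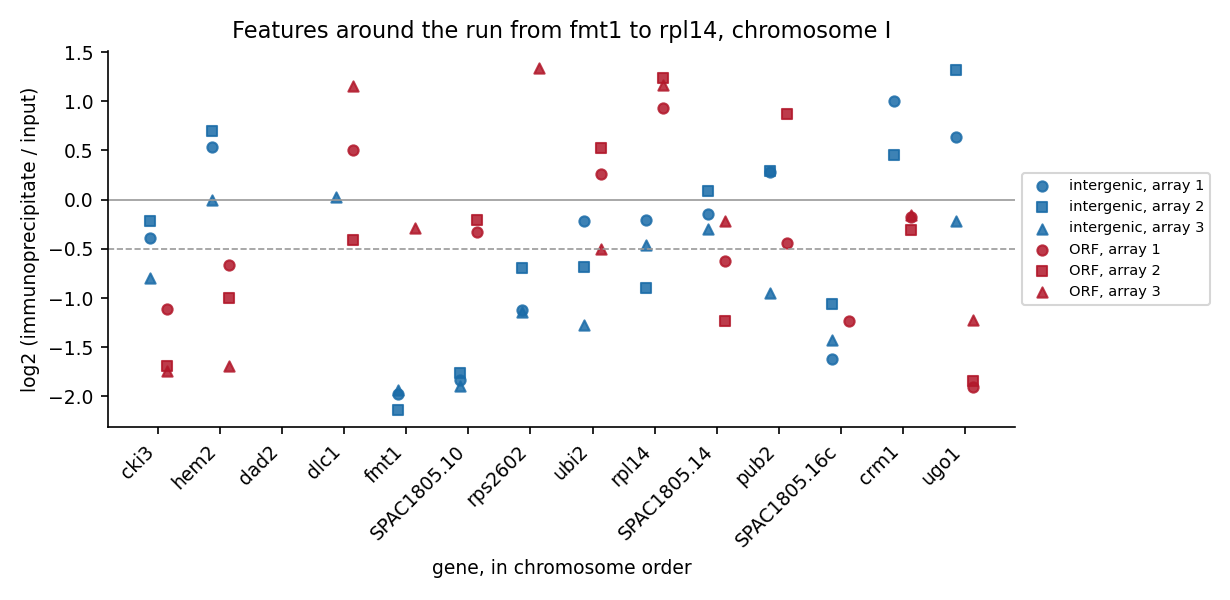
Log2 ratio of immunoprecipitate over input (vertical axis) for intergenic features (blue) and ORF features (red) of genes in chromosome order around the longest run, on replicates 1, 2 and 3 (circles, squares and triangles). Missing symbols were not accepted on that array; the dashed line is the limit of -0.5, and the intergenic values rise from fmt1 at -2.02 to rpl14 at -0.52.

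The other 6 runs held 3 members each. On chromosome I they were alx1, vps4 and atg22 (means of -0.72, -0.66 and -0.81), set3, glo3 and SPAC22E12.18 (-0.82, -1.30 and -1.22), and csm1, ubc13 and sea3 (-0.89, -1.18 and -1.20). On chromosome III they were scw1, sts5 and pgl1 (-0.98, -0.59 and -0.89), SPCC622.01c, SPCC622.02 and SPCC622.07 (-0.90, -1.17 and -0.67), and nup97, SPCC1620.12c and snf22 (-0.56, -0.94 and -0.69). Alx1 and Vps4 both act in the ESCRT pathway. The runs of scw1 and of nup97 lost all 3 members with block centring, and those of alx1, csm1 and SPCC622.01c kept all 3.

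Genes were also grouped by words in their product descriptions, and the share of members ran from 0% to 33.3% between classes, against 10.3% of all measured intergenic features. A gene whose description lacks these words is not counted, so the kinase genes hrk1, lkh1 and kin1 and the repair gene mhf2 stand outside the classes of their function. Genes of kinetochores, microtubules and the spindle had 9 members of 27 (33.3%), with a class median of 0.25 against 0.54 for all. Among them were mis15 (-1.80, -0.84 and -1.56), a kinetochore protein gene, mmb1 (-1.09, -1.13 and -1.49), which ties mitochondria to microtubules, and the kinesin-8 gene klp6 (-0.87, -1.38 and -1.23). This class was defined after members were seen, and 6 of the 9 remained with block centring. Vesicle and membrane trafficking had 10 of 48 (20.8%), led by sec74, glo3 and sec73 (-0.66, -1.60 and -1.01), with 9 kept. Genes described by DNA replication, repair or a helicase had 7 of 36 (19.4%), with 4 kept, and the lowest of these were sld5, srs2 and swi2. Ubiquitin or proteasome genes had 10 of 59 (16.9%), with 8 kept, led by ubp9 (-0.87, -1.54 and -1.25), ubc13 and pre10 (-0.92, -1.31 and -1.22).

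Genes for tRNA ligases or modification, also grouped after the members were seen, had 5 of 16 (31.2%), with 3 kept, led by pus4, the alanine ligase gene ala1 (-1.13, -1.64 and -0.89) and the tyrosine ligase gene SPCC576.06c (-0.66, -1.04 and -0.97). Cytosolic ribosomal protein genes had 10 of 75 (13.3%), with a class median of 0.52, and only 6 of the 10 remained with block centring. Their lowest were rpl2802 (-1.25, -0.72 and -1.35), rps2602 and rps1501 (-1.08, -0.84 and -0.90). The class ranged from -1.10 to 2.84. Chromatin remodelling or histone modification, not among the planned classes, had 7 of 50 (14%), with 3 kept. It was led by arp8 (-0.77, -1.96 and -1.60) of the Ino80 complex, hrp3 (-1.22, -1.30 and -1.02) and snf5 (-1.06, -1.16 and -0.57).

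Membrane transporter genes had 13 of 124 (10.5%), with 8 kept, despite a higher class median of 0.94, led by SPAC1B3.15c, the phosphate transporter gene SPBC1703.13c (-1.10, -0.97 and -1.40) and mtm1 (-1.30, -0.75 and -1.24). Genes described as a protein kinase or phosphatase had 7 of 70 (10%), with 4 kept, and the lowest of these were oca2 (-1.10, -0.91 and -1.22), cdc25 and shk2. Splicing or RNA processing had 5 of 55 (9.09%), with 3 kept, led by usp107, smb1 and noc1 at -1.11, -1.06 and -0.77. Transcription genes had 6 of 80 (7.5%), with 3 kept, led by tfg1 and rad15. Another intergenic feature matched to noc1 had a mean of -0.44 over the arrays with a value and lay outside the set. For the member genes ats1 (-1.14) and pmc1 (-0.70) such another feature was at 0.72 and 1.63. Mitochondrial ribosomal proteins had 1 of 23, mrpl31, and other proteins named as mitochondrial had 2 of 7, mmb1 and mef2. The mug genes, upregulated in meiosis, had 1 of 33 (3.03%), mug170, and the wtf spore-killer family had 0 of 11. Uncharacterised genes had 15 of 137 (10.9%), and 111 members fell into none of these classes or of the lists that follow.

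No gene of the following lists was a member, where the share over all measured intergenic features was 10.3%. With lists this short, that share alone would give few members. The iron-uptake list had 0 of 11 measured intergenic features in the set, with a median of 3.35 and a range of 0.11 to 4.12. The glycolysis and fermentation list had 0 of 12 with a median of 2.79, the glucose-repressed list 0 of 7 with 1.81, and the core stress list 0 of 10 with 1.46. Histone genes had 0 of 8 with a median of 1.37. The features of the corepressor genes and of tRNA genes had 0 of 1 and 0 of 11. The lowest value in these lists was -0.42, in the stress list.

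Features that match no annotated gene made up 14 members, and several of them represent centromeric repeats. The dg and dh repeats form the heterochromatin that flanks fission yeast centromeres. The feature dhIIrepeatpartial had -1.20, -1.24 and -1.61, the feature between dhIIa and dgIIa had -1.06, -0.64 and -1.37, and dg1repeat and dgIIrepeat had means of -0.71 ± 0.06 and -0.65 ± 0.27 (SD, n = 3). All 4 also met the rule with block centring. The dh1repeat feature was no member, at 1.11, -0.06 and -0.00. Since these repeats occur in several near-identical copies, a spot reports on all copies that hybridise to it. A 5S rRNA promoter feature had -0.74, -0.82 and -1.35 but left the set with block centring, while the other 3 features named for 5S rRNA genes had means between 0.48 and 1.12. The telomere-like features had 1.40 and 0.28.

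Short sequence motifs were counted in the 300 bases upstream of the start codon in ASM294v3, on either strand, for 203 members and 1765 other measured intergenic features of protein-coding genes. TATAAA was found in 39.9% of members (33.3% of those kept with block centring) and 47.6% of the others, and TGATAA in 18.7% and 27.3%. AGATAA, which also resembles sites of GATA factors, was found in 26.6% and 24.4%, and AAAAAAAA in 22.2% and 26.4%. CAGTCACA, the HomolD box, was in 11 members (5.42%) and in 3.34% of the others. TGACGT was found in 5.91% and 6.35%, and ACGCGT, the cell-cycle box MCB, in 2.46% and 3.12%. In gaps shorter than 300 bases the window reaches into the neighbouring gene. These shares describe letters in a window and not binding sites.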

How the data were processed

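Arrays were scanned with ScanExpress and quantified with TIGR Spotfinder, per the labels' protocols, with no version named there. The authors deposited spot intensity values per channel, not normalized between channels, for 22176 spots per array, with rejected spots listed at 0. The deposited files also hold quality score values and a fraction of unsaturated pixels, which were not used. The deposited series table holds log10 values, per the labels scaled in GeneSpring. Set against the spots, its columns (medians 0.02, 0.05 and 0.03) followed the immunoprecipitate channel (r = 0.79, 0.73 and 0.70) more than the ratio (0.36, 0.26 and 0.35). It was therefore not used as a ratio, and its scale and centring stay unknown.

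Log2 of integrated Cy5 over Cy3 intensity was taken for spots accepted in both channels and centred on each array's median over genomic spots (0.52, -0.29 and 0.24). Control, foreign and unnamed spots were left out, repeat spots averaged. Intergenic features accepted on only 2 arrays (895), 1 array (846) or no array (946) are not described. Means were tested against 0 with limma 3.58.1 (R 4.3.3), Benjamini-Hochberg adjusted over the 5461 features with a value on all 3 arrays; the fit was tested on simulated data. P-values measure only the spread between these samples.

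Names were matched to ASM294v3 (9355 of 9967 features, 93.9%), lncRNA genes left out as neighbours. Of 18 tRNA features named with positions, 11 equal those of that assembly. Promoter windows were read from the genome in place of the planned promoter table. Members, gene lists and classes were chosen with earlier results of these data known. Block centring was added after the data were seen. Named were the 12 lowest members, those around the limit, those of extreme SD, those with enriched or lowest ORF features, pairs, runs and up to 3 per class (classes by words in product descriptions). One planned motif is not reported here.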

Additional observations from a re-analysis of the deposited data

How the results depend on the processing

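The number of depleted features stayed within 1.5 times of 217 except with centring on ORF features (77), without a filter on flags (645), without dim input spots (96) and at a limit of -1 (63). Without 1 replicate it was 224 to 252, of which 179 to 206 were among the 217. The difference of the ORF features of member genes was 0.03 with loess, -0.27 with further background subtraction, -0.12 per print block, -0.08 with values on at least 2 arrays, and -0.10 to 0.00 without 1 replicate. The difference of the divergent partners was -1.07 with ORF centring, -1.17 with further background subtraction, -1.89 without a filter on flags, -0.82 without dim immunoprecipitate spots, -0.77 without dim input spots, -1.03 per print block, -0.82 with values on at least 2 arrays, -0.58 within bins of equal input, and -1.0 to -0.89 without 1 replicate. The members, and so the number of their ORF features, were chosen anew under each setting. The share called among all ORF features was not counted for each setting, so nothing about the members is read from the counts that follow. With the 124 ORF features held fixed, ORF centring called 17.7% depleted and 16.1% enriched, against 19.6% and 17.4% of the other ORF features. Per print block these shares were 47.6% and 2.42%, against 43.1% and 9.2%. ORF features of member genes called depleted by limma (52 of 124) numbered 6 of 42 with ORF centring, 23 of 92 with loess, 21 of 104 with further background subtraction, 118 of 601 without a filter on flags, 32 of 88 without dim immunoprecipitate spots, 13 of 46 without dim input spots, and 33 of 147, 59 of 136 and 42 of 128 without replicates 1, 2 and 3. Those called enriched (4 of 124) numbered 8 of 42 with ORF centring, 2 of 104 with further background subtraction, 85 of 601 without a filter on flags, 7 of 166 with values on at least 2 arrays, and 2 to 9 without 1 replicate. Over all features, the 1425 depleted calls became 677 with ORF centring, 910 with loess, 404 with further background subtraction, 888 without dim immunoprecipitate spots, 812 without dim input spots, and 830 to 1358 without 1 replicate. The 1209 enriched calls became 1911 with ORF centring, 2055 without a filter on flags, 769 without dim input spots, and 790 to 1290 without 1 replicate. The cause of these shifts was not tested.

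Of the checks on named ORF features 150 kept their call and 9 lost it, all among dph5, cdc25, rpl14 and shk2, and none changed sign. Values of named intergenic features moved by less than 1 SD in 103 checks and by more in 43. Settings that left a named feature without a value gave no check. The mean spot intensity, the median of repeat spots and the filter on at least 2 arrays left the means of named features as they were. Those checks could not move an intergenic value beyond rounding, and none lost an ORF call. They still count among the 103 and the 150. The deposited series table gave no alternative, since it followed the immunoprecipitate channel. No paired analysis was possible because the series has a single group. With 3 arrays, dim immunoprecipitate near the control spots limits how low a ratio can be measured.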
